A study of Mus musculus with 16 samples.

Results

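Nitric oxide is made from arginine, and the 9 genes followed here make it, free it from inhibition, or compete for and replace its substrate: the nitric oxide synthases Nos1, Nos2 and Nos3, the dimethylarginine hydrolases Ddah1 and Ddah2, the arginases Arg1 and Arg2, and the arginine-synthesising enzymes Ass1 and Asl. They were chosen as a pathway, with earlier results of these data known, and found by matching Ensembl identifiers to mouse symbols. All 9 were among the 25719 genes counted, and all 9 passed the filter on low counts that left 14803 genes for testing. RNA was sequenced from tail tendon fascicles, the collagen strands drawn from the mouse tail, in 8 libraries labelled WT (wild type) and 8 labelled KO, which the series describes as ScxCre;Vhlf/f. In these mice Cre recombinase, driven by control elements of the tendon gene Scx, acts on floxed alleles of Vhl. Vhl encodes the subunit of a ubiquitin ligase that recognises the hydroxylated α subunits of the hypoxia-inducible factors (HIF). The labels give no strain, sex, age or treatment and do not say whether the wild type mice carried Cre or floxed alleles. They also do not say that each library came from a separate animal, so the p-values below measure the spread between these libraries. Whole tissue with all its cells was used, so a transcript that fell because fewer cells of a type were present cannot be told apart from one that fell within those cells.

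Each synthase turns arginine and oxygen into citrulline and nitric oxide, a short-lived gas that activates soluble guanylate cyclase in neighbouring cells. Nos1 was first described in neurons and is also a protein of skeletal muscle fibres, Nos3 is the synthase of endothelium, and Nos2 is the form whose activity is set mainly by how much of it is made, as in activated macrophages. Methylated arginines released from degraded proteins block the synthases, and the dimethylarginine hydrolases break them down. Arginases split the same arginine into ornithine and urea, while Ass1 and Asl rebuild arginine from citrulline. Nos2 is a known target of HIF1α, and nitric oxide has been studied in tendon repair.

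Total counts were 10488355 to 18753254 in knockout libraries and 10792900 to 16379401 in wild type libraries. Vhl, the targeted gene, was at 20.5 ± 3.69 counts scaled to library size (CPM) in wild type libraries against 9.36 ± 1.25 CPM after knockout (SD, n = 8). Its log2 fold change was -1.13 (SE 0.113, edgeR adjusted p = 9.64e-08), and no library overlapped the other group. Markers of tenocytes were present in every library but lower after knockout: 6 of the 8 fell, none rose, and their median log2 fold change was -0.93. Their sum had a median of 125417 CPM (76425 to 179855) after knockout and 302709 CPM (129837 to 379894) in wild type libraries, and its part in the falls described below was not tested. Skeletal muscle markers were uneven: they summed to 6819, 8718 and 8240 CPM in the knockout libraries numbered 6, 7 and 8, to 4458 CPM in the wild type library numbered 5, and to at most 1235 CPM elsewhere. Y-linked genes summed to more than 10 CPM in 2 libraries of each genotype.

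Of the 9 genes, 7 passed the threshold (adjusted p under 0.05 in the quasi-likelihood F test of edgeR, with p-values adjusted by Benjamini and Hochberg's method over all tested genes), with 4 higher after knockout and 3 lower. Among all tested genes 48.3% passed, 25.6% higher and 22.7% lower. The ranges of the genotypes were separate for the same 7 genes, 4 with the knockout above and 3 with it below. Separate ranges were found for 19.4% of all tested genes, 10.8% with the knockout above and 8.61% with it below. Nos2, Nos3 and Ddah1 differed by more than 4 on the log2 scale, a size that 1.22% of all tested genes exceeded and that was chosen after the values were seen. The median log2 fold change was 0.20 over the 9 genes and 0.02 over all tested genes. With only the 12 libraries that had the least muscle marker RNA, 7 of the 9 again passed, as did 6101 of 14900 tested genes. That selection was made after the marker levels were seen.

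**Figure D1:**
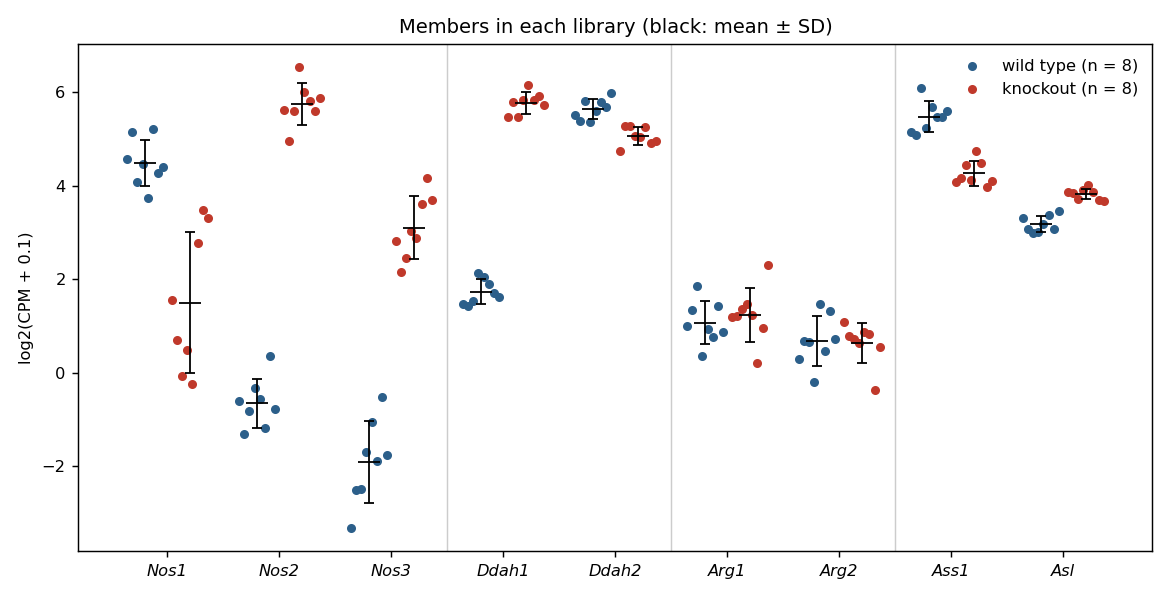
Level of the 9 genes in each library as log2(CPM + 0.1), with wild type in blue, knockout in red and mean ± SD in black (n = 8 each). The groups are separate for every gene except Arg1 and Arg2, and the 3 highest knockout values of Nos1, between 6.74 and 11.1 CPM, lie apart from the other 5.

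The 3 synthases did not move together. Nos2 (ENSMUSG00000020826, chromosome 11) was barely counted in the wild type, with 4 to 12 counts per library, and reached 364 to 1297 counts in the knockout. Its level lay between 0.303 and 1.19 CPM in the wild type, with a median of 0.522 CPM, and between 31.0 and 93.1 CPM in the knockout, with a median of 52.7 CPM. The lowest knockout library was thus far above the highest wild type library. The log2 fold change was 6.60 (SE 0.260, edgeR adjusted p = 7.97e-13), a 97.2-fold difference. From the summed counts, 6784 against 52, the ratio was 99.5, with an exact 95% interval for counting error of 75.8 to 133.

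Macrophages are a textbook source of Nos2, and their markers were followed beside it. Of the 11 macrophage markers, 3 were higher, none was lower and the other 8 did not pass the threshold. Their summed level was 1383 to 2029 CPM in knockout libraries and 1258 to 1822 CPM in wild type libraries, and no marker was at 0 in all libraries of a genotype. Set against these markers within each library, Nos2 was higher in the knockout by 6.36 on the log2 scale (SD 0.37 in knockout libraries and 0.56 in the wild type, exact permutation test over all assignments of the libraries, two-sided, p = 0.000155, the smallest value possible, n = 8). Over the 6 such ratios tested the adjusted exact p was 0.000233. Since Nos2 differed far more than the marker sums did, this p was fixed by the levels of Nos2 and carries no evidence about macrophages. Markers of neutrophils, another cell that can make Nos2, summed to at most 5.38 CPM in any library, and none of the 7 passed the filter. Within genotypes Nos2 and the macrophage markers were not clearly related. In the knockout Pearson's r was 0.59 (exact permutation p = 0.119, n = 8) and Spearman's rho 0.64 (exact permutation p = 0.0962, n = 8). In the wild type r was 0.26 (exact permutation p = 0.557, n = 8) and rho 0.14 (exact permutation p = 0.752, n = 8). Without the 2 libraries farthest from the median marker level, r was 0.68 and -0.35. Which cells held the Nos2 transcript was not tested.

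Nos3 (ENSMUSG00000028978, chromosome 5), the endothelial synthase, was the other synthase that rose. The wild type libraries held 0 to 6 counts each, 19 in all, and 6 of the 8 were at or under 3 counts, the floor used here for detection. The knockout libraries held 51 to 368 counts. Levels lay between 4.34 and 17.8 CPM in the knockout, with a median of 7.72 CPM, and did not exceed 0.597 CPM in the wild type. The log2 fold change was 5.44 (SE 0.419, edgeR adjusted p = 4.60e-09). From the summed counts the ratio was 48.5, with an exact 95% interval for counting error of 30.9 to 80.8.

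Endothelial markers rose with Nos3. Of the 16 listed, 11 were tested, and 9 of those were higher and none lower in the knockout. Their summed level was 66.8 to 656 CPM in knockout libraries, above the 42.3 to 61.4 CPM of wild type libraries without overlap, and no marker was at 0 in all libraries of a genotype. Within the knockout Nos3 followed this sum closely (Pearson's r = 0.96, exact permutation p = 0.00062, adjusted p = 0.00248 over 8 relations, n = 8). Spearman's rho was 0.98 (exact permutation p = 0.000397, adjusted p = 0.00317, n = 8), and r was 0.91 without the 2 libraries farthest from the median. The high end of this relation was knockout libraries 6, 7 and 8, with endothelial sums of 429, 656 and 448 CPM and Nos3 at 12.1, 17.8 and 12.9 CPM. These libraries also held the most skeletal muscle marker RNA and the most mural marker RNA (990, 1301 and 1078 CPM). In the wild type, with its few counts, r was 0.62 (exact permutation p = 0.0954, n = 8) and rho 0.62 (exact permutation p = 0.115, n = 8), and r was 0.52 without the 2 farthest. The median log2 fold change of the 11 tested markers was 3.41, against 5.44 for Nos3. The log2 ratio of Nos3 to the marker sum, which weights abundant markers most, was -4.63 ± 0.59 in knockout libraries and -7.99 ± 1.03 in the wild type (SD, n = 8), without overlap. The difference of 3.37 had an exact permutation p of 0.000155 (n = 8), and 0.000233 after adjustment. It was 2.57 with a count offset of 2 in place of 0.5, on a wild type total of 19 counts of Nos3, and 3.63 without the most abundant marker in the sum. With the endothelial marker score as a covariate the log2 fold change of Nos3 was 3.90 (edgeR adjusted p = 1.76e-07). It was 4.96 with the muscle score as covariate and 5.05 with only the 12 libraries of least muscle marker RNA.

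Of the annotated exon bases of Nos3, 7.12% are shared with Atg9b on the opposite strand and 25.2% with Gm15587, an antisense gene not used here. Whether counting used strand is not given in the sources used here. The counts of Nos3 are thus uncertain, by an amount that the shares of bases do not give. Atg9b, an autophagy gene singled out because of this overlap, was also higher, at 35.5 ± 5.89 CPM in the knockout against 0.640 ± 0.351 CPM in the wild type (SD, n = 8; log2 fold change 5.74, edgeR adjusted p = 3.14e-14). Across the knockout libraries their levels differed in order: library 7 had the highest Nos3, 17.8 CPM, and the lowest Atg9b, 28.9 CPM, and library 5 had the highest Atg9b, 48.7 CPM, with 7.32 CPM of Nos3. The part of the shared bases in the level of Nos3 was not tested.

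Nos1 (ENSMUSG00000029361, chromosome 5) fell. It lay between 13.3 and 37.2 CPM in the wild type, with a median of 21.4 CPM, and between 0.742 and 11.1 CPM in the knockout, with a median of 2.18 CPM. No knockout library reached the lowest wild type library. The knockout libraries fell into a lower range of 0.742 to 2.83 CPM in libraries 1 to 5 and values of 6.74, 11.1 and 9.76 CPM in libraries 6, 7 and 8. The log2 fold change was -2.40 (SE 0.519, edgeR adjusted p = 0.00129), a 5.29-fold lower level.

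The same 3 knockout libraries held the most skeletal muscle marker RNA. Their sums of 6819 to 8718 CPM were separate from the 152 to 1145 CPM of the other 5. Across the knockout libraries Nos1 and the summed markers gave r = 0.98 (exact permutation p = 0.000595, adjusted p = 0.00248, n = 8). Spearman's rho was 0.90 (exact permutation p = 0.00456, adjusted p = 0.0183, n = 8). Without the 2 libraries farthest from the median marker level r was 0.95. That relation spans the gap between these 3 libraries and the other 5. In the wild type Nos1 and the summed markers gave r = -0.73 (exact permutation p = 0.0454, adjusted p = 0.121, n = 8) and rho = -0.64 (exact permutation p = 0.0962, adjusted p = 0.184, n = 8), and r was -0.47 without the 2 farthest, so that relation did not pass the adjusted threshold. Wild type library 8, with the least muscle marker RNA of all at 53.0 CPM, held 20.9 CPM of Nos1, and wild type library 5, with the most of its genotype, held the least Nos1. Of the 13 muscle markers, 1 was higher in the knockout, none was lower, and none was at 0 in all libraries of a genotype. With only the 12 libraries of least muscle marker RNA the log2 fold change of Nos1 was -4.14 (SE 0.322, edgeR adjusted p = 9.80e-08), while a fit with the muscle score as covariate gave -2.84 and one with the endothelial score -5.77 (edgeR adjusted p = 6.70e-05). Relative to the muscle markers of the same library, Nos1 differed by -4.96 on the log2 scale (exact permutation test, p = 0.000622, adjusted p = 0.000746, n = 8). The SD of this ratio was 0.88 in knockout libraries and 2.68 in the wild type, where it ran from -8.39 to -1.05. The muscle sums under it spanned 53.0 to 4458 CPM in the wild type. Wild type library 5, at -8.39, lay within the knockout range of -9.98 to -7.63.

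**Figure D2:**
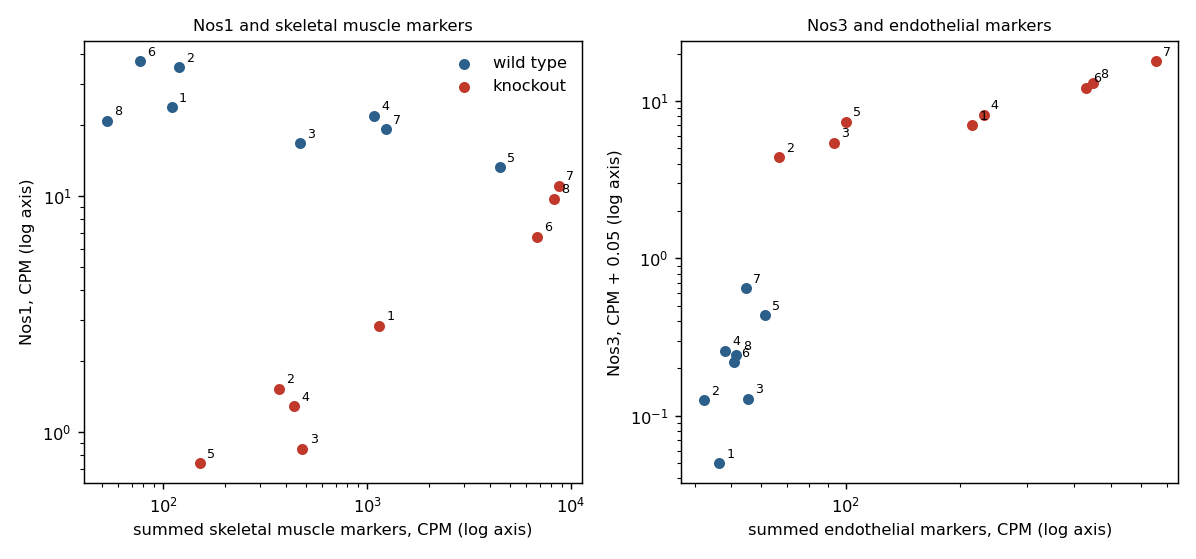
Left, Nos1 against 13 summed skeletal muscle markers, and right, Nos3 (plus 0.05 CPM) against 16 summed endothelial markers, in CPM on log axes, with 1 point per library labelled by its number (wild type blue, knockout red). The 3 knockout libraries with the most marker RNA are the highest knockout libraries in both panels, and at low muscle marker levels the wild type libraries lie far above the knockout libraries in Nos1.

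Per kilobase of annotated exon, a scale that allows for gene length, the make-up of synthase RNA differed between the genotypes. The lengths join all annotated exons of a gene, whichever transcripts were present, so levels of different genes compare only roughly. Nos1 made up 91.0% ± 5.88 of the summed level of the 3 synthases in wild type libraries and 2.51% ± 2.21 in the knockout (SD, n = 8). Nos2 made up 6.38% ± 3.50 and 82.7% ± 8.02, and Nos3 2.61% ± 2.63 and 14.8% ± 5.89. The sum was 2.29 ± 0.715 CPM per kilobase in wild type libraries and 15.4 ± 4.36 CPM per kilobase in the knockout, with the highest wild type library at 3.45 and the lowest knockout library at 8.20. These shares describe RNA and carry no test, since they combine the genes tested above.

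**Figure D3:**
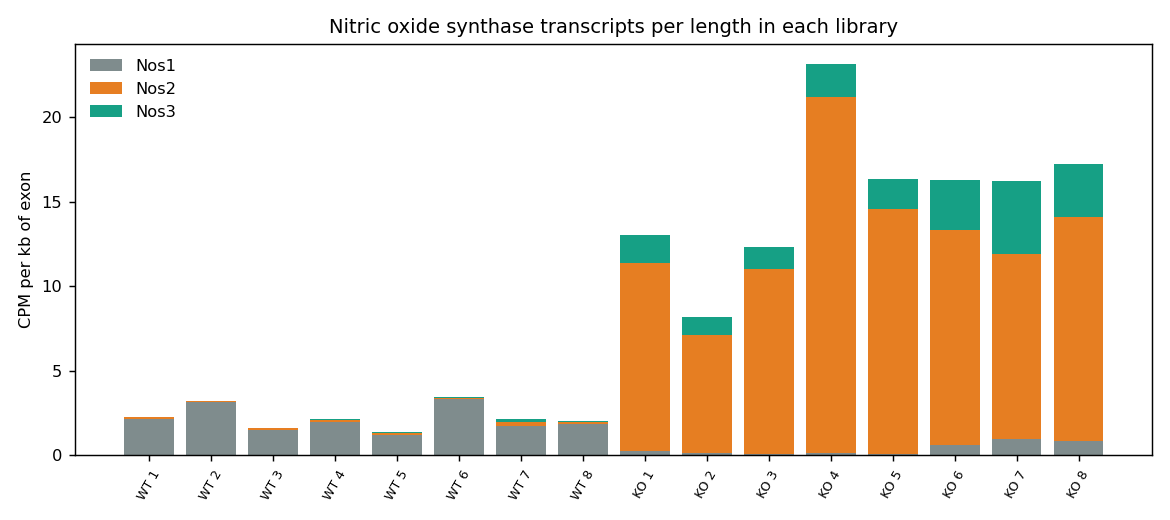
Stacked levels of Nos1, Nos2 and Nos3 in CPM per kilobase of exon, 1 bar per library from wild type 1 to knockout 8. Wild type bars consist mostly of Nos1 and reach at most 3.45, while knockout bars consist mostly of Nos2 and run from 8.20 to 23.2.

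The hydrolases that remove methylated arginine moved in opposite directions. Ddah1 (ENSMUSG00000028194, chromosome 3) lay between 2.57 and 4.32 CPM in the wild type, with a median of 3.09 CPM, and between 44.1 and 71.2 CPM in the knockout, with a median of 56.1 CPM. Every knockout library was far above every wild type library. The log2 fold change was 4.07 (SE 0.126, edgeR adjusted p = 6.25e-15), a 16.8-fold rise. Ddah2 (ENSMUSG00000007039, chromosome 17) fell to 33.8 ± 4.52 CPM from 50.3 ± 7.69 (SD, n = 8). Its wild type libraries lay between 40.9 and 62.9 CPM and its knockout libraries between 26.8 and 39.1 CPM, so the groups were separate by a small gap. The log2 fold change of Ddah2 was -0.57 (SE 0.0980, edgeR adjusted p = 7.14e-05). It was -0.28 with total counts as the scale (adjusted p = 0.0414), and with the endothelial marker score as a covariate it did not pass the threshold (-0.38, adjusted p = 0.126).

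Because a ratio within a library needs no scaling between libraries, the pair was also compared directly. Both genes were already separate between the genotypes, in opposite directions. Their ratio therefore had to be separate too, and its p adds no further support. The log2 ratio of Ddah1 to Ddah2 counts was 0.70 ± 0.29 in knockout libraries and -3.93 ± 0.37 in the wild type (SD, n = 8), a difference of 4.63 (exact permutation test, p = 0.000155, adjusted p = 0.000233, n = 8). Per kilobase of exon, Ddah1 made up 2.60% ± 0.720 of the pair in wild type libraries and 39.6% ± 4.76 in the knockout. On that rough scale Ddah2 stayed the more abundant transcript in every library. The sum of the pair was 32.4 ± 4.80 and 35.1 ± 3.60 CPM per kilobase, ranges that overlapped.

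Of the 9 genes, 4 had an entry in the RefSeq promoter table (GRCm38.p6): Nos1, Ddah1, Ddah2 and Ass1. The 250 bases before each start site were searched on both strands for ACGTG and GCGTG, the core letters at which HIF binds, counting overlapping matches as 1 place. At least 1 place was found in 38.6% of the 32851 promoters of the table and at least 3 in 4.65%. Ddah1, which rose, and Ass1, which fell, are shown because they moved in opposite directions and both hold the core. Capitals mark the core on either strand. The windows, read 5′ to 3′ on the forward strand, are chr3:145758442-145758691 for Ddah1 and chr2:31470020-31470269 for Ass1.
Ddah1: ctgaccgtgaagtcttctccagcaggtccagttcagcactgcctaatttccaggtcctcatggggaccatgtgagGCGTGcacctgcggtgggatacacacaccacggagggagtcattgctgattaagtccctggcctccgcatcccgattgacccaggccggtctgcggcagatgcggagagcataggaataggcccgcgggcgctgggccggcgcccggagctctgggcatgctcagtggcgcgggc
Ass1: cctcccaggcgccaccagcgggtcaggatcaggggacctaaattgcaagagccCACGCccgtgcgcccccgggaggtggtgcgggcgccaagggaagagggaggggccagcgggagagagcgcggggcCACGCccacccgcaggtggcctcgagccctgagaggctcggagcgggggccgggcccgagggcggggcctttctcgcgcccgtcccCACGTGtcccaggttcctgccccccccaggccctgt
Ddah1 held 1 place, a GCGTG between 171 and 175 bases before the start site. Ass1 held 3 places: GCGTG on the reverse strand between 193 and 197 and between 118 and 122 bases before the start, and a palindromic CACGTG that contains the core on both strands. The windows of Nos1 and Ddah2 held none. These matches describe letters in a short window and are not binding data.

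The enzymes that rebuild arginine from citrulline also moved apart. Ass1 (ENSMUSG00000076441, chromosome 2), which joins citrulline to aspartate, lay between 34.0 and 68.4 CPM in the wild type, with a median of 44.3 CPM, and between 15.6 and 26.8 CPM in the knockout, with a median of 17.6 CPM. The highest knockout library was below the lowest wild type library. The log2 fold change was -1.23 (SE 0.142, edgeR adjusted p = 7.92e-07), a 2.34-fold lower level. Asl (ENSMUSG00000025533, chromosome 5), which splits the product into arginine and fumarate, rose to 14.1 ± 1.15 CPM from 9.06 ± 1.15 (SD, n = 8; log2 fold change 0.64, SE 0.0846, edgeR adjusted p = 3.43e-06). Its wild type libraries reached at most 10.9 CPM and its knockout libraries began at 12.7 CPM. The log2 ratio of Ass1 to Asl counts fell from 2.30 ± 0.39 to 0.44 ± 0.22 (SD, n = 8), a difference of -1.85 without overlap (exact permutation test, p = 0.000155, adjusted p = 0.000233, n = 8). With both genes separate in opposite directions, that separation and its p were fixed by the levels above and add no further support. Per kilobase of exon Ass1 was the more abundant in both genotypes, at 18.8 ± 4.61 against 1.88 ± 0.238 in wild type libraries and 8.05 ± 1.57 against 2.92 ± 0.239 in the knockout.

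**Figure D4:**
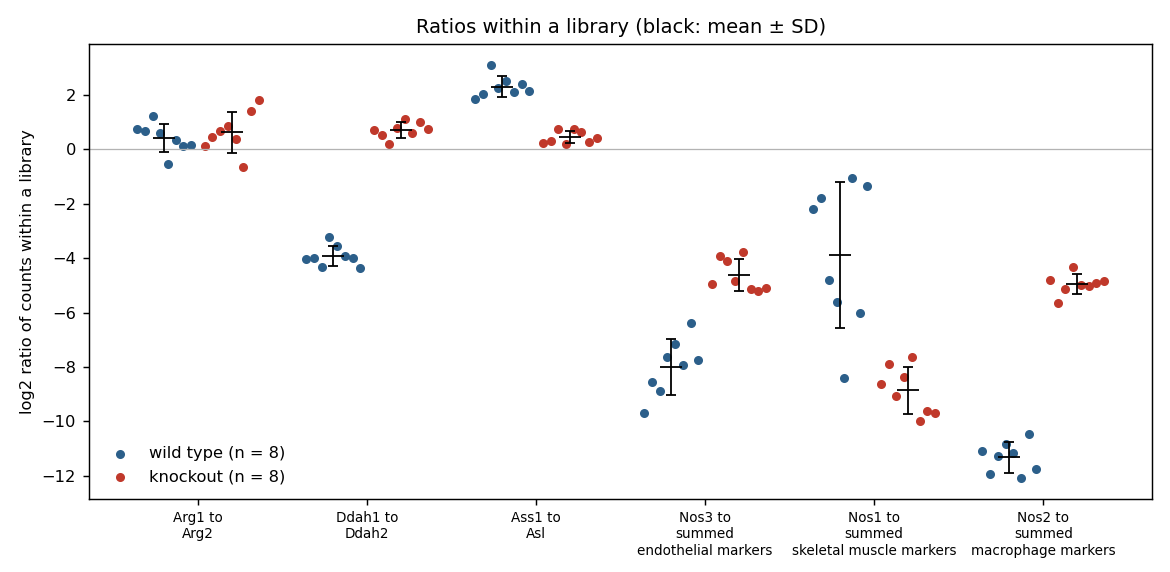
Log2 ratio of counts within each library for 3 gene pairs and for Nos3, Nos1 and Nos2 against the summed markers of the cell type known to express them (wild type blue, knockout red, black mean ± SD, n = 8 each). The groups are separate for 4 ratios, overlap for Arg1 to Arg2, and overlap through wild type library 5 for Nos1 to muscle markers.

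The arginases were low in both genotypes and did not pass the threshold. Arg1 (ENSMUSG00000019987, chromosome 10), the cytosolic form of liver and of some macrophages, stood at 2.44 ± 1.08 CPM after knockout against 2.10 ± 0.723 CPM in wild type libraries (SD, n = 8; log2 fold change 0.20, SE 0.259, edgeR adjusted p = 0.556). Knockout library 8 was highest at 4.84 CPM, and without it the difference was -0.01. Arg2 (ENSMUSG00000021125, chromosome 12), the mitochondrial form, was at 1.51 ± 0.391 CPM after knockout and 1.60 ± 0.640 CPM in wild type libraries (log2 fold change -0.08, SE 0.244, adjusted p = 0.815), and changed sign, to 0.22, with total counts. Vti1b on the opposite strand shares 285 of the 1428 exon bases of Arg2, so those counts are uncertain. Arg2 had 14 to 35 counts per knockout library and 10 to 28 per wild type library. The ratio of Arg1 to Arg2 did not differ beyond the spread (0.22, exact permutation test, p = 0.511, n = 8). Arg1 did not follow the macrophage markers within the knockout (Pearson's r = -0.07, exact permutation p = 0.904, n = 8; Spearman's rho = 0.19, exact permutation p = 0.665, n = 8) or within the wild type (r = -0.20, exact permutation p = 0.621, n = 8; rho = -0.29, exact permutation p = 0.501, n = 8). Without the 2 farthest libraries r was -0.14 and -0.49.

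On the same rough scale per kilobase of exon the order of the 9 genes changed with genotype. In the wild type Ddah2 (31.6 ± 4.83 CPM per kilobase) stood highest and Ass1 (18.8 ± 4.61) next, well above Nos1 (2.11 ± 0.760) and Asl (1.88 ± 0.238), which did not differ beyond their spread. Arg2 (1.12 ± 0.448), Arg1 (0.941 ± 0.325) and Ddah1 (0.823 ± 0.163) followed within their spread, and Nos2 (0.131 ± 0.0635) and Nos3 (0.0516 ± 0.0468) were lowest (SD, n = 8). In the knockout Ddah2 (21.2 ± 2.84) again stood first, followed by Ddah1 (13.9 ± 2.20) and Nos2 (12.7 ± 4.06), which overlapped each other. Ass1 (8.05 ± 1.57) came next, then Asl (2.92 ± 0.239) and Nos3 (2.27 ± 1.10), then Arg1 (1.10 ± 0.486) and Arg2 (1.06 ± 0.274), with Nos1 lowest (0.390 ± 0.379).

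The surrounding pathway was read from a list of 74 further genes, of which 68 were tested. Of these, 19 were higher and 17 lower in the knockout, together 52.9%, close to the 48.3% of all tested genes, and their median log2 fold change was -0.02. Group by group, 75.0% passed for transport, 70.0% for cyclic GMP signalling, 46.2% for polyamines and 45.5% for synthase partners. The share was 42.9% for ornithine and proline, 33.3% for tetrahydrobiopterin, 25.0% for protein arginine methylation and 100% for the urea cycle group. With 5 to 13 tested genes each, no group was tested as a set. Adjusted p-values of these pathway genes come from the same edgeR test over all tested genes. Among carriers of arginine and ornithine, 5 of 8 tested genes were higher, 1 was lower and 2 did not pass. Slc7a3, a cationic amino acid transporter, rose to 4.61 ± 1.90 CPM from 0.886 ± 0.406 (log2 fold change 2.33, SE 0.284, adjusted p = 1.24e-06), without overlap. Slc7a2, the cationic transporter that is induced with Nos2 in macrophages, rose to 146 ± 19.9 CPM from 64.5 ± 24.9 (1.18, SE 0.167, adjusted p = 1.38e-05). Wild type library 3, at 125 CPM, was the only one of its genotype to reach the knockout range, and without it the log2 fold change was 1.38. Slc3a2, the heavy chain shared by several of these carriers, rose by 0.51 (adjusted p = 1.59e-05).

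Enzymes of tetrahydrobiopterin, the cofactor all 3 synthases need, mostly did not pass: 1 of 6 tested genes was higher, 1 lower and 4 not past the threshold. Gch1, which catalyses the rate-limiting step, rose to 3.99 ± 0.783 CPM from 2.65 ± 0.652 (0.60, SE 0.164, adjusted p = 0.00480), with overlap. Pts, which acts next, fell by 0.32 on the log2 scale (adjusted p = 0.0119), but differed by -0.03 with total counts (adjusted p = 0.847) and did not pass with the endothelial covariate (-0.49, adjusted p = 0.0663). Among 11 partners of the synthases, 2 were higher and 3 lower. Nostrin, which binds and traffics Nos3, rose to 3.34 ± 0.561 CPM from 1.76 ± 0.686 (0.94, adjusted p = 9.78e-04). The chaperone Hsp90aa1 rose by 0.89 (adjusted p = 1.99e-05), and the calmodulin gene Calm3 fell by 0.55 on the log2 scale (adjusted p = 1.40e-05). With the endothelial marker score as a covariate Gch1 (0.37, adjusted p = 0.402), Nostrin (0.57, adjusted p = 0.282) and Calm3 (-0.37, adjusted p = 0.0661) did not pass.

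Downstream of nitric oxide, 5 of 10 genes of cyclic GMP signalling and S-nitrosothiol removal were higher and 2 lower. Gucy1a1 and Gucy1b1 encode the subunits of soluble guanylate cyclase. Gucy1b1 rose to 4.26 ± 3.51 CPM from 0.899 ± 0.205 (2.27, SE 0.509, adjusted p = 0.00135) and Gucy1a1 to 10.1 ± 5.21 CPM from 3.15 ± 4.03 (1.71, SE 0.624, adjusted p = 0.0343), both with overlap. Both were highest in knockout libraries 6, 7 and 8, which held the most endothelial and mural marker RNA. In wild type libraries 7 and 8 Gucy1a1 was at 11.5 and 7.15 CPM, against 0.209 to 1.77 CPM in the others of that genotype, with endothelial sums of 54.7 and 51.4 CPM inside the wild type range. With the endothelial marker score as a covariate Gucy1b1 turned to -1.29 (adjusted p = 0.00686) and Gucy1a1 to -0.22 (adjusted p = 0.904). With only the 12 libraries of least muscle marker RNA Gucy1b1 was at 1.12 (adjusted p = 0.0249) and Gucy1a1 did not pass (1.04, adjusted p = 0.286). With the muscle score as a covariate Gucy1b1 was at 1.36 (adjusted p = 0.0183) and Gucy1a1 at 1.25 (adjusted p = 0.123), and leaving out wild type library 7 gave 2.39. Leaving out any 1 of 8 other libraries, knockout 6, 7 or 8 or wild type 1, 2, 3, 5 or 6, ended the call of Gucy1a1 (adjusted p between 0.0531 and 0.0645). Prkg2, a cyclic GMP-dependent kinase, fell to 1.91 ± 0.760 CPM from 10.8 ± 3.46 (-2.49, SE 0.270, adjusted p = 3.70e-07), without overlap.

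The largest rise and the largest fall among the named pathway genes lay at the entry of the urea cycle. Nags makes N-acetylglutamate, the activator that Cps1 requires. Nags was counted 3 times in all 8 wild type libraries together and 932 times in the knockout, where it lay between 5.86 and 10.3 CPM (adjusted p = 5.63e-13). The ratio from summed counts was 237, with an exact 95% interval for counting error of 80.8 to 1150. Exons of Nags overlap an antisense gene not used here, so its counts are uncertain without strand. Cps1 moved the other way, to 1.59 ± 0.960 CPM from 28.0 ± 9.62 (log2 fold change -4.20, SE 0.332, adjusted p = 2.05e-08), without overlap. Otc, the next enzyme of the cycle in liver, had 1 count in all 16 libraries. All 4 other tested genes of this group, Cps1 included, were lower, among them the creatine enzyme Gamt (-0.48, adjusted p = 0.00533), which did not pass with total counts (-0.17, adjusted p = 0.290). Of 13 genes of the polyamine pathway, which starts from the ornithine that arginases release, 1 was higher and 5 lower. Smox, spermine oxidase, rose by 0.73 (adjusted p = 1.18e-05), Sat2 fell by 1.12 on the log2 scale (adjusted p = 1.88e-06) and the spermidine synthase Srm fell by 0.72 on that scale (adjusted p = 0.00323). Of 7 genes of ornithine and proline, 2 were higher and 1 lower. Aldh4a1, the last enzyme of proline breakdown, rose to 24.7 ± 2.02 CPM from 11.7 ± 0.948 (1.08, SE 0.0683, adjusted p = 1.31e-10), Aldh18a1, which starts proline synthesis, rose by 0.60 (adjusted p = 0.00293), and Oat, which links ornithine to proline, fell by 0.67 on the log2 scale (adjusted p = 1.10e-05). Exons of Aldh4a1 overlap another listed gene, so its counts are uncertain. With the endothelial marker score as a covariate Oat (-0.37, adjusted p = 0.103) and Srm (-0.45, adjusted p = 0.369) did not pass. Of 8 tested genes of protein arginine methylation, the source of methylated arginine, 2 were higher and none lower, by 0.33 for Prmt6 and 0.28 for Prmt5 (adjusted p = 0.00964 and 0.0141), and with the endothelial covariate neither passed (adjusted p = 0.112 and 0.0727).

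**Figure D5:**
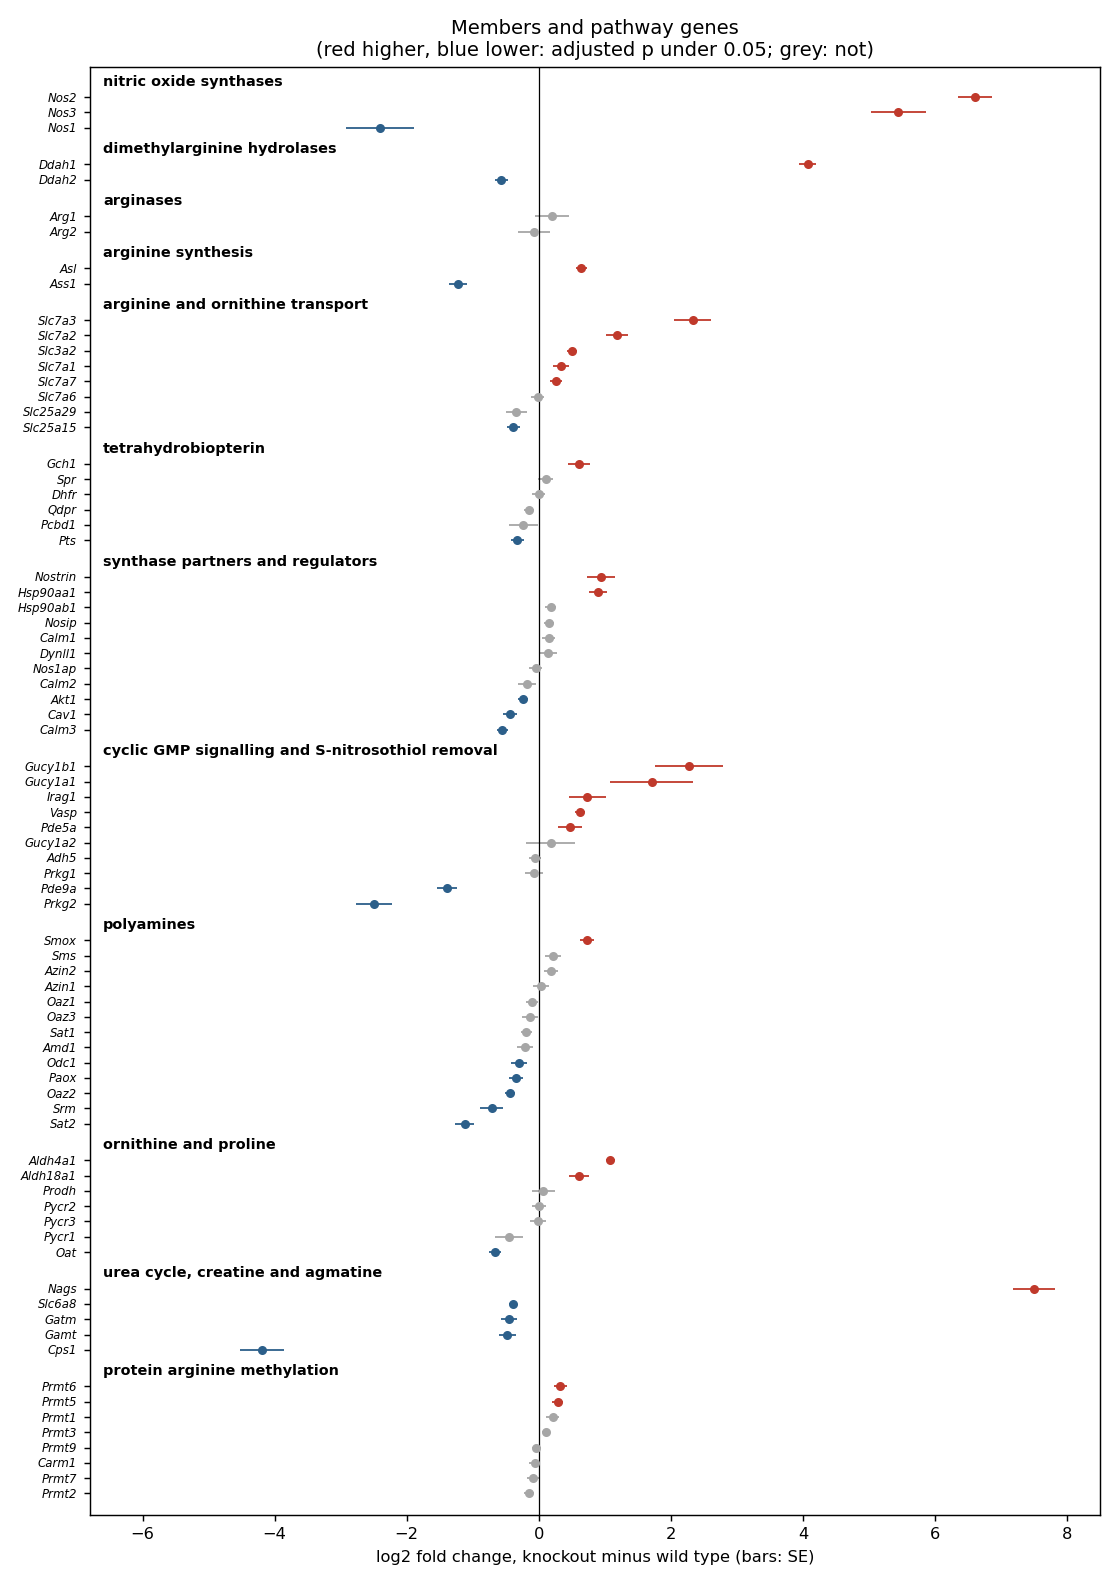
Log2 fold change, knockout minus wild type, with its standard error, for the 9 genes (the top 4 groups) and the 68 tested pathway genes by role. Red and blue mark genes past the threshold, and the extremes are Nags at a fitted 7.49, Nos2 at 6.60 and Cps1 at -4.20.

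Library-to-library variation within genotypes linked few of the 9 genes to each other: after genotype means were removed, the highest correlation among them was 0.61, between Ass1 and Ddah2 (n = 16 libraries, which share depth and composition). Among 13417 genes with a mean log2 CPM of at least 1, the genes most like Nos3 were Adamts20 (r = 0.95), Usp2 (0.94) and the pericyte marker Rgs5 (0.89). Those most like Nos1 were Ankrd10 (0.94), Fam13a (0.93) and Itga3 (0.92), none of which passed the threshold between genotypes. Nos2 varied most like Map3k6 (0.86), Slc25a33 (0.84) and the glucocorticoid-induced Fkbp5 (0.83). Ddah1 varied most like Haus7 (0.88), Txn2 (0.87) and Immt (0.85), and the last 2 encode mitochondrial proteins. Ddah2 varied most like Paics (0.91) and the ribosomal protein genes Rpl37 and Rpl37a (0.90 each). For Ass1 the nearest were Vps29 (0.90), Hist3h2a (0.88) and Enpp2 (0.87), and for Asl Usf2, Rbck1 and Wdr46 (0.84 each). These are the highest of many correlations over few libraries and are given as a description.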

How the data were processed

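The deposited files hold raw counts, 1 column per library for 25719 Ensembl genes, per the file headers. Kallisto, featureCounts and the build GRCm39 are named in the submitters' processing notes. Which tool gave this column, the annotation and the use of strand are not given in the sources used here. Names came from the supplied table (25614 identifiers matched), and exon lengths and overlaps from GENCODE M21 (GRCm38), so only chromosomes are given for genes.

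Counts were fitted with edgeR 4.0.16 in R 4.3.3 (TMM scaling, default expression filter, robust quasi-likelihood F test, genotype as the only term, two-sided), with Benjamini-Hochberg adjustment over 14803 genes. On simulated counts it called 182 of 197 changed genes among 14753. CPM use TMM-scaled library sizes, and log2 CPM a prior count of 2. Ratios used a count offset of 0.5. A floor of 3 counts corresponded to 0.145 to 0.336 CPM, and intervals cover counting error only. No 2 libraries of a genotype agreed within sampling noise (chi-square per degree of freedom of at least 6.56). Alternatives were DESeq2 1.42.0, limma 3.58.1 (voom), other scalings and filters, covariates, a replicate block and leaving out each library. Named pathway genes are, in each role group, up to 3 past the threshold with the largest change. The genes followed, the lists and the tests were chosen with earlier results of these data known.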

Additional observations from a re-analysis of the deposited data

Results flagged for a closer look

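Single libraries stood apart from the other 7 of their genotype in 7 of 96 checks of log2 values, where chance gives about 1 in 20, or 4.80. Among the 9 genes this concerned Arg2, whose lowest knockout library, 7, had a log2 CPM of -0.27 against 0.59 in the next. Slc7a2 was highest in wild type library 3, at 6.97 against 5.98, and Prkg2 lowest in wild type library 5, at 2.03 against 3.19. Aldh4a1 was highest in knockout library 5, at 4.87 against 4.65, and Gamt in knockout library 8, at 3.04 against 2.28. The summed mural markers were lowest in wild type library 8, at a log2 CPM of 7.71 against 8.01, and the summed tenocyte markers in wild type library 3, at 16.99 against 17.81.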

How the results depend on the processing

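Of the 9 genes, the 7 past the threshold kept their direction under all 28 alternatives, and 6 of them kept the threshold; Ddah2 lost it with the endothelial marker score as a covariate (-0.38, adjusted p = 0.126). The summed endothelial markers do not overlap between the genotypes, so that covariate and genotype are hard to separate. With it 3995 of all genes (7151 otherwise) and 22 of the pathway genes (36 otherwise) passed, Gucy1b1 was at -1.29, Gucy1a1 at -0.22 and Arg2 at 0.24, while Nos1 was at -5.77. With total counts as the scale the median of all genes moved from 0.02 to 0.32, 85.4% of 9685 calls were higher in the knockout against 53.0%, and Arg2 was at 0.22. With only the 12 libraries of least muscle marker RNA, an alternative added after seeing the data, Arg2 was at 0.23, 6101 genes passed and Gucy1a1 (1.04, adjusted p = 0.286) and Srm (-0.54, adjusted p = 0.0633) did not. Leaving out 1 library at a time gave -0.01 to 0.34 for Arg1 and -0.19 to 0.07 for Arg2, where knockout library 7 and wild type libraries 5 and 7 each turned the sign. It gave 1.51 to 2.39 for Gucy1a1, which lost the threshold on leaving out any 1 of 8 of the libraries. The replicate numbers of the titles did not pair the libraries: 3 of 8 same-number correlations of deviations exceeded 0.1, and in 1 number the libraries correlated best with each other. With the replicate block 7010 genes passed, among them 7 of the 9 genes and 36 pathway genes. Low counts limit Nos2, Nos3 and Nags in the wild type and both arginases in all libraries.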

Other observations

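Marker lists of other cell types also differed between the genotypes. For red cells, whose haemoglobin binds nitric oxide, 5 of 5 tested erythroid markers were higher in the knockout, and their summed level was 77.8 to 563 CPM against 15.1 to 50.8 CPM in the wild type, without overlap. Of 6 tested mural markers, genes of the vessel wall cells that respond to nitric oxide, 4 were higher and 1 lower, with sums of 236 to 1301 CPM against 209 to 284 CPM. Of 5 tested keratinocyte markers 1 was higher and 4 lower, with sums of 28.6 to 44.4 CPM against 44.7 to 115 CPM. Krt1 was at 0 in all 16 libraries. None of the 3 tested Schwann cell markers and not the 1 tested adipocyte marker passed the threshold (edgeR), and their sums overlapped between the genotypes. The part of these cells in the levels of the 9 genes was not tested.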
